A study of Drosophila melanogaster with 3 samples.

Results

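The oligosaccharyltransferase (OST) is described here by 6 genes of Drosophila melanogaster, Stt3A, Stt3B, Ost48, OstDelta, Ostgamma and Dad1, taken by name from 13945 protein-coding genes in a dm6 annotation. Binding of the transcription factor Xbp1 was measured by ChIP-seq in whole embryos, male and female pooled, collected 0 to 24 h old. All embryos came from 1 transgenic line that stably made Xbp1 with GFP fused to its C terminus, and an antibody against GFP was used to pull down the sonicated chromatin (200 to 800 bp). The 3 samples were biological replicates of this single group, so there was no second condition and nothing below compares treatments. Because whole embryos were used, a peak does not say in which cells Xbp1-GFP was bound. Peak lists carry no expression values, so the labelled stage could not be checked against marker genes. Peaks came from 5 lists that the authors deposited, holding 21686, 30000 and 23357 entries for replicates 1, 2 and 3, 27099 for the pooled replicates, and 7291 pooled peaks kept by the irreproducible discovery rate (the thresholded list). Whether the list of replicate 2, with its round total, was cut off is not stated. Read totals were not analysed here and the depth of each library is unknown.

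The OST is the membrane complex of the endoplasmic reticulum (ER) that moves a preassembled glycan from a dolichol lipid to asparagine residues of proteins entering the ER. Its catalytic subunit is Stt3. In mammals STT3A works beside the translocon on chains still being made, whereas STT3B acts later, with an oxidoreductase subunit of the MagT1 family, on sites that were skipped. Xbp1 is the transcription factor that the ER sensor Ire1 activates in the unfolded protein response, and genes of the secretory pathway are known as its targets. The strongest thresholded peak lay at Xbp1 itself, with rank 1 in the list.

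Xbp1-GFP peaks lay within 500 bp of the start sites of all 6 genes, 5 of them among the strongest in the list. A thresholded summit, the position of highest signal in a peak, lay in the gene or within 2 kb of it for 6 of 6 members, against 48.2% of all protein-coding genes, and within 500 bp of the start site for 6 of 6, against 30.4%. Among the 729 strongest thresholded peaks (10% of the list, a limit chosen after seeing the data), 5 of 6 members had a summit within 500 bp of the start site, against 4.98% of all genes, and Ost48 did not. The summit counted for Stt3A lay 397 bp upstream and was nearer to a start site of its neighbour bves (212 bp). No set test was run, and these counts describe the 6 genes. The genes were chosen with earlier results of these data known, so the counts are not independent of that choice. The pooled signal of the strongest start-site peak, which is the authors' own value per peak on a scale without a stated unit, was 1924 at Stt3A, 1590 at OstDelta, 1205 at Dad1, 1204 at Stt3B, 1111 at Ostgamma and 233 at Ost48. Over the 4242 genes with such a peak the median was 403 and the upper quartile 699. Thus 5 members stood above that quartile, and Ost48 stood below the lower quartile of 260.

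**Figure D1:**
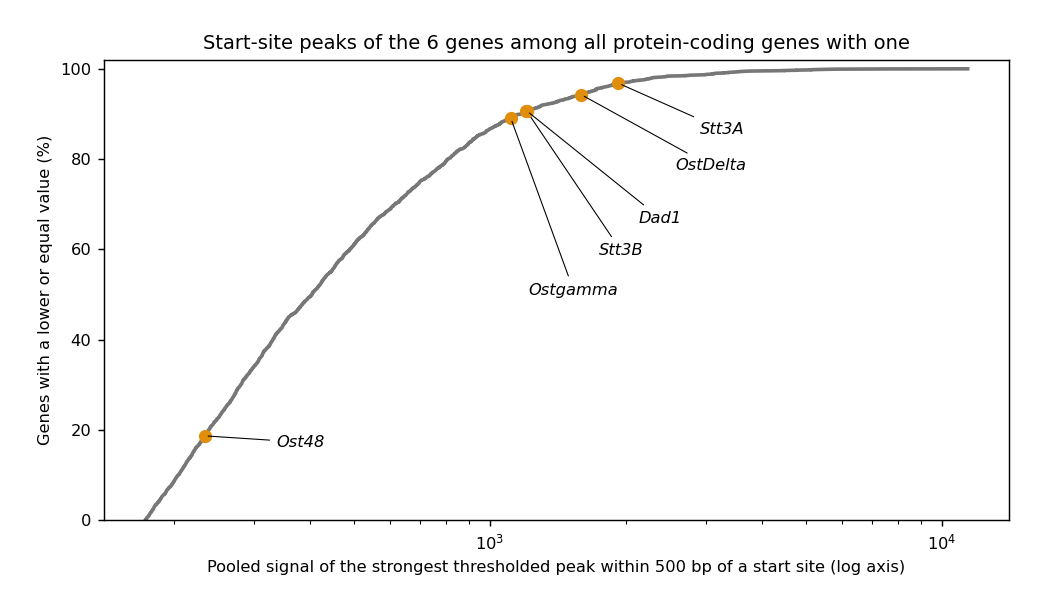
Cumulative distribution of pooled signal (log axis) over the 4242 protein-coding genes with a thresholded peak within 500 bp of a start site, with the 6 OST genes as orange points. Stt3A, OstDelta, Dad1, Stt3B and Ostgamma lie in the upper tail, above 89.1% or more of the genes, and Ost48 lies above 18.7%.

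The 6 genes held 13 thresholded summits between them, of which 8 lay within 500 bp of the member's own start site. By the pooled position 0 lay in coding exons, although the replicate summits of the stronger Ostgamma peak did. All 13 had a q-value of 7.03e-05, the smallest in the list, so the q-value does not order them. The sequences 50 bp to each side of 6 summits on chromosomes X, 2L and 3R are shown: the start-site summits of Ostgamma, Stt3B, Stt3A and Ost48, and the other summits of Stt3A and Ostgamma, which hold motif matches. They run 5′ to 3′ on the strand of the member gene, in dm6 coordinates with the minus strand shown, from the Release 6 genome sequence of RefSeq. Capitals mark matches to any of the 9 motifs searched on both strands, some of which contain others. These were TGACGTGG, known as the unfolded protein response element bound by mammalian XBP1 and ATF6, its shorter parts GACGTG and then TGACGT as well as the core ACGTG with its other end, read on the opposite strand as CCACG, the cyclic AMP element TGACGTCA, the E-box CACGTG, the DRE element TATCGATA of many fly housekeeping promoters, and GGTCACAC, part of the fly promoter element Motif 1.
Ostgamma, summit in its intron (chr2L:8307928-8308028): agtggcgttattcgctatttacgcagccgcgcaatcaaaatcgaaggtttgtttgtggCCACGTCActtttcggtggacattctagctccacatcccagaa
Ostgamma, summit at its start site (chr2L:8308158-8308258): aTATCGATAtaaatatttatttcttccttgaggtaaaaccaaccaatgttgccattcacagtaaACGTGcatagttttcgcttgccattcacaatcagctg
Stt3B (chr3R:25069648-25069748): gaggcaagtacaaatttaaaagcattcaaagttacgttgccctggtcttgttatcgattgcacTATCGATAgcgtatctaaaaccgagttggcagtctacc
Stt3A, upstream summit (chrX:21054284-21054384): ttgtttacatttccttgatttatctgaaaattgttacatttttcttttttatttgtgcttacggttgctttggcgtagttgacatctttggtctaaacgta
Stt3A, summit inside the gene (chrX:21053262-21053362): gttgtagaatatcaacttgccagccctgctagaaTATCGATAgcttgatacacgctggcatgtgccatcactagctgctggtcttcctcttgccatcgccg
Ost48, start-site summit (chrX:9158401-9158501): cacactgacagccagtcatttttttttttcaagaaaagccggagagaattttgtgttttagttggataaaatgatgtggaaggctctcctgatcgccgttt

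The Ostgamma summit was the only start-site peak of the 6 genes with TGACGTGG within 50 bp. The match ran from 8 bp downstream of the summit, on the strand opposite to the gene, so the printed window reads CCACGTCA. Only 40 of 7291 thresholded summits held this element (0.549%), and 24 of 3478 promoter summits (0.690%), which lie within 500 bp of a protein-coding start site. By pooled signal the Ostgamma peak ranked 3 of these 40. OstDelta held the shorter TGACGT and GACGTG, whose matches overlapped and began 18 and 19 bp downstream of the summit; 3.82% and 3.28% of promoter summits held them. The start-site windows of Stt3A, Stt3B, Ost48 and Dad1 held neither. The element TATCGATA lay beside 4 of the 13 summits, at Stt3B (13 bp downstream of the summit), OstDelta (starting 4 bp upstream), the Ostgamma start-site summit and the Stt3A summit inside the gene. Counting any summit in the gene or within 2 kb, 4 of 6 members had it, against 7.32% of the 6717 genes with such a summit. These sets are unlike: all 6 members had a promoter summit, which many of the 6717 genes lacked. Of the 197 thresholded summits with TATCGATA, 189 were promoter summits. Also, 4 of 6 members had 2 or more summits, against 20.9% of all genes. At the strongest start-site peak 2 of 6 members had it, Stt3B and OstDelta, against 5.43% of promoter summits. Ost48, the weakest member, and Dad1, one of the strong ones, had no match to any of the 9 motifs at any of their summits. With 100 bp to each side, CCACG was also found at Stt3A and ACGTG at Stt3B. In windows of that size 14.2% of promoter summits held CCACG and 18.7% held ACGTG. TGACGTGG still appeared at Ostgamma alone. A match is a description of the letters in the window and not a measured binding site. The motifs, too, were chosen with earlier results of these data known.

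**Figure D2:**
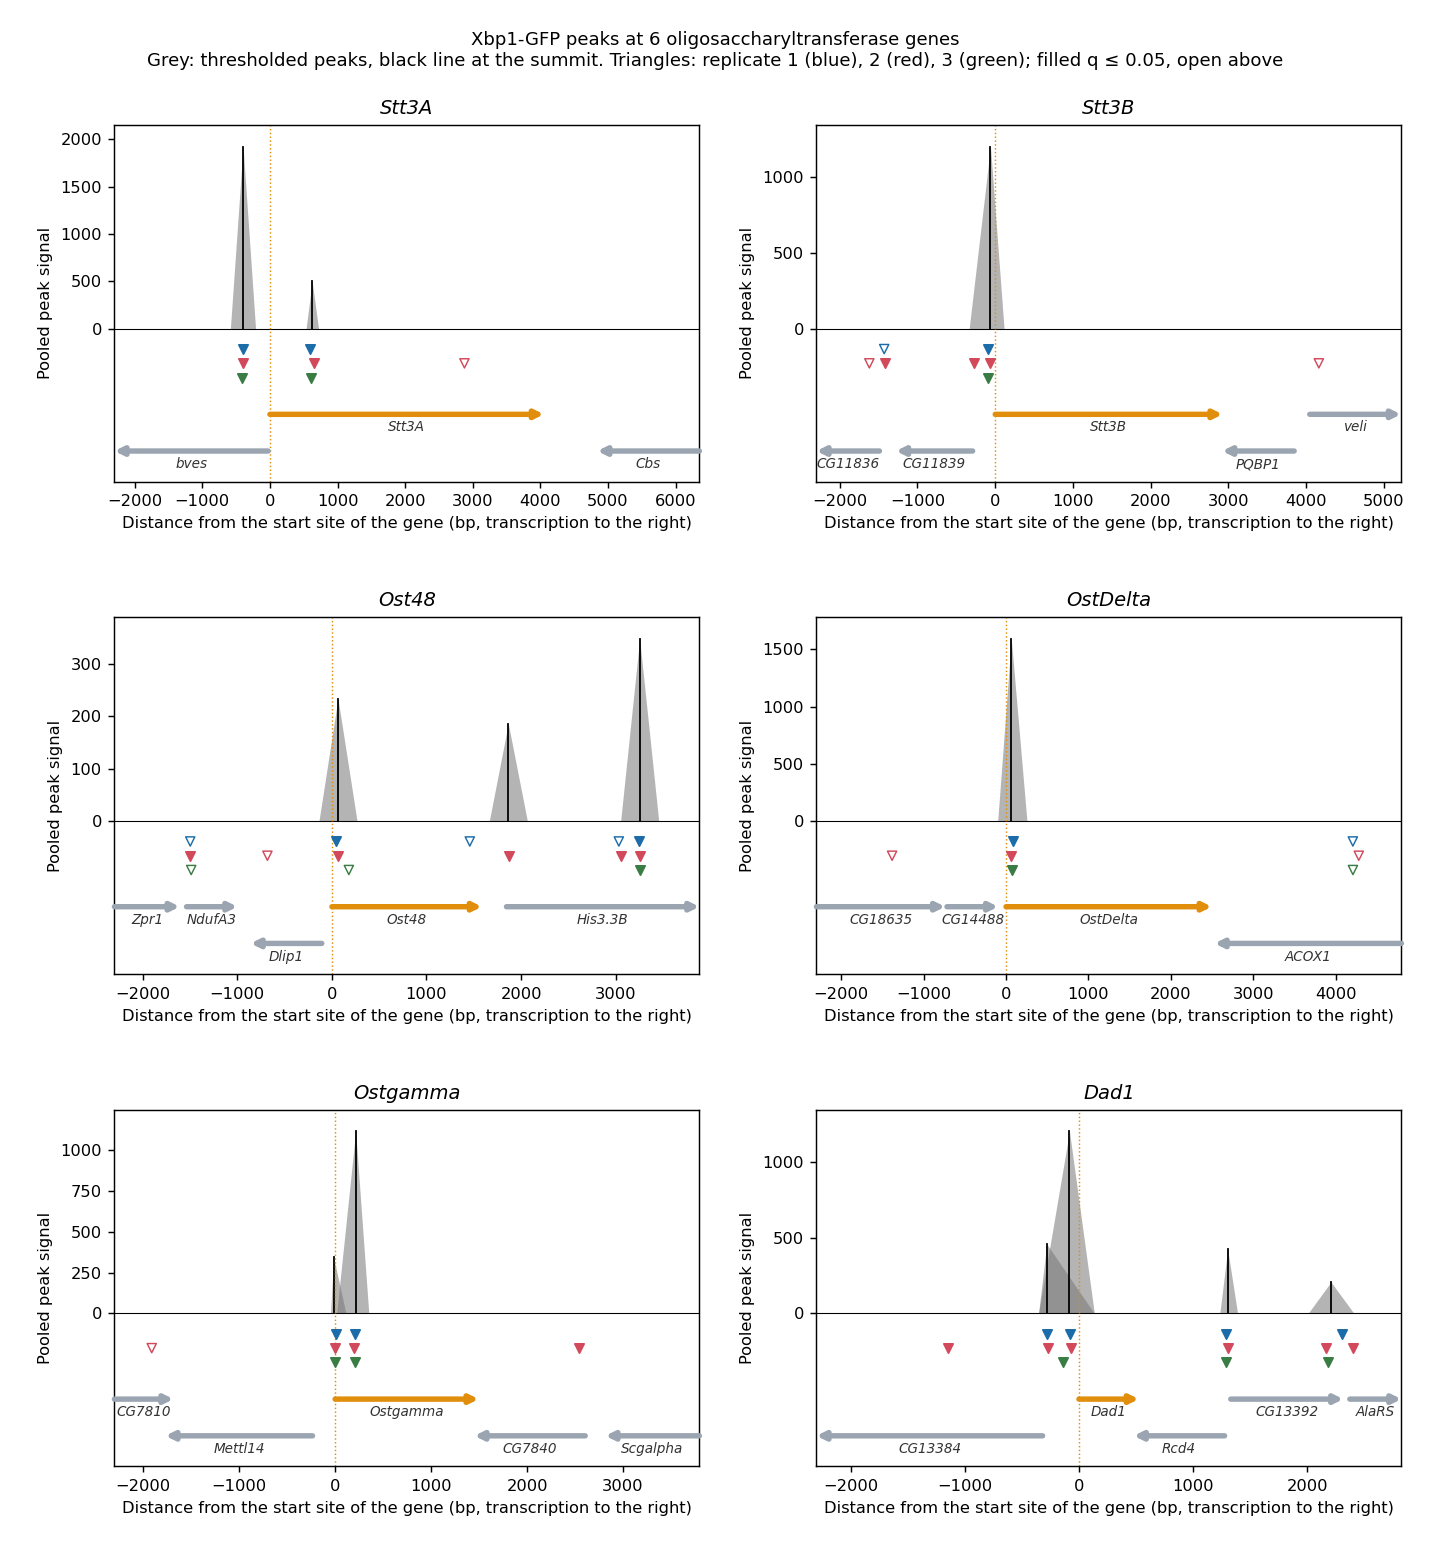
Thresholded peaks (grey, spanning each peak with the apex at its summit, height in pooled signal) at the 6 OST genes by distance from the start site in bp, with replicate summits as triangles (filled where q was 0.05 or less) and genes as arrows. Each gene has a peak within 500 bp of its start site, with replicate triangles beneath it. The replicate 3 triangle lies between the pooled summits at Dad1 and is open at Ost48.

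The catalytic subunits Stt3A and Stt3B both had a strong peak upstream of their start site. Stt3A (FBgn0031149) lies on the minus strand of X from 21049885 to 21053937, 26 bp from a start site of bves on the opposite strand. Its strongest peak spanned 21054149 to 21054522 with the summit at 21054334, 397 bp upstream of the Stt3A start site and in an intron of bves. Another start site of bves was nearer to this summit (212 bp), so the peak cannot be assigned to Stt3A alone, and Stt3A had no summit within 200 bp. In the replicates 1, 2 and 3 the peak had signals of 781, 727 and 429 and ranked 176, 99 and 170 in the whole lists. The 3 replicate summits lay within 17 bp of the pooled summit. A weaker peak lay in an intron of Stt3A 625 bp downstream of its start site (pooled signal 500, rank 1994 of 7291), with replicate signals of 184, 222 and 90.1. Only this weaker one lies in Stt3A itself.

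Stt3B (FBgn0011336) lies on the minus strand of 3R from 25066712 to 25069637, and its start site is 290 bp from that of CG11839 on the opposite strand. It had 1 thresholded peak, from 25069523 to 25069972, with the summit at 25069698 between the genes, 61 bp upstream of Stt3B and 229 bp upstream of CG11839. Replicates 1, 2 and 3 gave signals of 463, 535 and 226 and ranks of 545, 188 and 682. Replicate 2 had a second summit in the same span, 267 bp upstream of Stt3B (signal 189, q = 5.40e-05), which the other lists lacked. A weaker pooled entry 1438 bp upstream, near the start of CG11836, had a signal of 135 and q = 0.00426. Of the replicates, only replicate 2 passed 0.05 there (q = 5.40e-05), with q = 0.563 in replicate 1 and no entry in replicate 3.

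Ostgamma (FBgn0032015), the fly MagT1 relative, and Dad1, a small membrane subunit first named as defender against apoptotic cell death, each had a double peak at the start site. Ostgamma lies on the minus strand of 2L from 8306696 to 8308192, 235 bp from the start of Mettl14, a subunit of the mRNA m6A methyltransferase. Its stronger summit was at 8307978, in an intron 214 bp downstream of the start site, and the weaker was at 8308208, 16 bp upstream of it (pooled signal 343). The stronger peak had signals of 322, 573 and 194 in replicates 1, 2 and 3 and ranks of 1095, 159 and 911. Its replicate summits lay 7, 16 and 10 bp from the pooled one and in a coding exon of Ostgamma. The placement in the intron thus rests on a few bp. All 3 replicates resolved both summits with q-values under 0.05, and the downstream summit was the higher in each.

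Dad1 (FBgn0263852) lies on the minus strand of 2L from 8383612 to 8384137 and had 4 thresholded summits within 2 kb. The strongest was at 8384220, 83 bp upstream of Dad1 and 235 bp upstream of CG13384, whose start site is 318 bp away on the opposite strand. A second summit in the same span lay 36 bp upstream of CG13384 and had a pooled signal of 460. The strongest peak had signals of 579, 391 and 248 in replicates 1, 2 and 3 and ranks of 344, 386 and 570. Replicates 1 and 2 resolved both summits, whereas replicate 3 gave a single summit between them, 136 bp upstream of Dad1. The other summits lay at neighbours: a peak between CG13392 and Rcd4, 27 bp upstream of each (424), and a weaker peak 165 bp upstream of AlaRS, the alanyl-tRNA synthetase gene (208).

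OstDelta (FBgn0034277), the fly counterpart of ribophorin II, had the least shared peak. The gene lies on the minus strand of 2R from 17764574 to 17767070. Its single thresholded peak, from 17766816 to 17767171, had its summit at 17767006 in the 5' UTR of OstDelta, 64 bp downstream of the start site, with no other protein-coding start site within 500 bp. Replicates 1, 2 and 3 gave signals of 499, 800 and 279 and ranks of 465, 77 and 459, and their summits lay within 16 bp of the pooled one. In replicate 2 this was the highest rank of any peak of the 6 genes.

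Ost48 (FBgn0014868), the counterpart of yeast Wbp1, had the weakest start-site peak of the 6 genes, with the largest spread between replicates. It lies on the minus strand of X from 9156929 to 9158515, 107 bp from the start of Dlip1 (dorsal interacting protein 1) on the opposite strand. The summit at 9158451 lay in its 5' UTR, 64 bp downstream of the start site, with a pooled rank of 5302 of 7291. Replicates 1, 2 and 3 gave signals of 83.8, 131 and 27.4, ranks of 6436, 2947 and 11008, and q-values of 0.000388, 5.40e-05 and 0.274. The entry of replicate 3 did not pass a q-value of 0.05, and its summit lay 115 bp from the pooled one. The strongest thresholded peak within 2 kb of Ost48 belonged to a neighbour: it lay in an intron of His3.3B, which encodes histone H3.3, 249 bp upstream of the nearest His3.3B start site, with a pooled signal of 347 and a rank of 3284. A weaker peak lay 19 bp downstream of another His3.3B start site (186), and of the replicate lists only that of replicate 2 had an entry overlapping it.

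In the replicate lists, 6 of 6 members had an entry with a q-value of 0.05 or less at the start site (500 bp or nearer) in replicate 1, against 35.0% of all genes, and 6 of 6 had one in replicate 2, against 48.4%. In replicate 3 the count was 5 of 6, without Ost48, against 29.6%. Since signal differs in scale between lists, strength was compared as a rank percentile, the share of other peaks with a lower value among the 6966 thresholded peaks found in all 3 lists. For each gene the strongest thresholded peak in or within 2 kb was used, which for Ost48 is the His3.3B peak. Stt3A had a percentile of 97.8 ± 0.610, OstDelta 94.9 ± 3.38, Dad1 93.4 ± 1.89, Stt3B 92.8 ± 3.89, Ostgamma 89.0 ± 7.54 and Ost48 47.4 ± 6.17 (SD, n = 3 each). The start-site peak of Ost48 had 11.9, 56.6 and 2.81 in replicates 1, 2 and 3, a mean of 23.8 ± 28.8 (SD, n = 3), and 2.40% of the 6966 peaks had a larger SD.

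This order was set by the means of the same percentiles, so each mean difference between neighbours is positive by construction. The p-values of neighbours therefore do not test the order. Of neighbours in this order, only Ostgamma and Ost48 kept 1 direction in all 3 replicates. Stt3A minus OstDelta was 2.86 ± 2.77, OstDelta minus Dad1 1.54 ± 3.29, Dad1 minus Stt3B 0.577 ± 3.22 and Stt3B minus Ostgamma 3.80 ± 4.38 (differences in percentile within a replicate, SD, n = 3), and each changed sign in at least 1 replicate. The difference between Stt3A and OstDelta was about the size of its SD, and without replicate 2 it was 4.46. Stt3B minus Ostgamma was 1.53 without replicate 1 and 5.90 without replicate 2. Ostgamma minus Ost48, with the His3.3B peak standing for Ost48, was 41.6 ± 3.91 and positive in 3 of 3 replicates. It was 65.3 ± 21.8 with the start-site peak of Ost48, an alternative chosen after seeing the data. It was 11.5 ± 1.69 when ranked among all entries of a list, and 24.0 ± 30.2 with an overlap of 50% or more required (SD, n = 3 each). With that overlap the exact sign-flip p was 0.5, so the direction was not kept in all 3 replicates. Stt3A was above Stt3B in 3 of 3 replicates, by 5.74, 1.34 and 7.84, a mean of 4.97 ± 3.32, and 1.40 ± 0.984 when ranked among all entries of a list (SD, n = 3 each). Exact two-sided sign-flip permutation tests over 3 replicates cannot give a p below 0.25, which both of these last pairs reached. After Benjamini-Hochberg adjustment over the 6 pairs every p was 0.75.

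**Figure D3:**
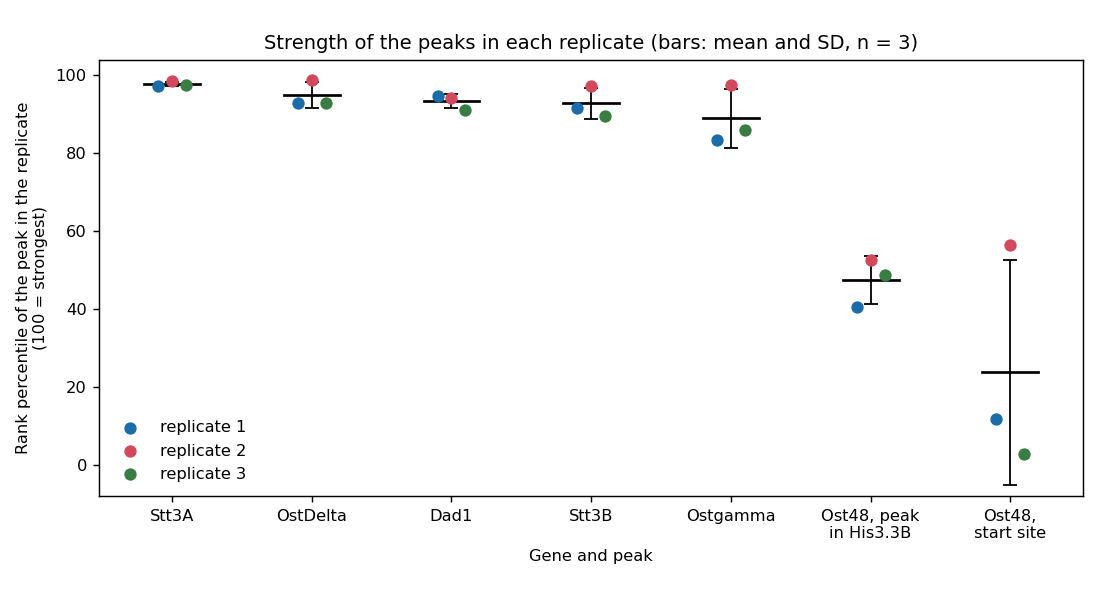
Rank percentile of each gene's peak among the 6966 thresholded peaks found in all 3 lists (vertical axis, 100 is the strongest), by replicate (points), with mean and SD (n = 3). Stt3A, OstDelta, Dad1, Stt3B and Ostgamma lie between 83.3 and 98.8 in every replicate, and the start-site peak of Ost48 lies between 2.81 and 56.6.

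Most of the 6 genes shared an arrangement of start sites. A divergent start site, that of a protein-coding gene on the opposite strand within 500 bp upstream, was present at 5 of 6 members, at distances from 26 bp (Stt3A and bves) to 318 bp (Dad1 and CG13384), and OstDelta lacked it. Of all protein-coding genes 27.4% had one. Of the 4242 genes with a thresholded start-site peak, as all 6 members had, 2233 had one. Start-site peaks of these 5 members were also within 500 bp of the neighbour's start site, as were 38.8% of the 3478 promoter summits with respect to a second gene, so the peaks cannot be assigned to the OST gene alone. Over the genome a thresholded start-site peak was found at 58.5% of the 3815 genes with a divergent start and at 19.8% of the 10130 genes without, and the part of this arrangement in the members' count was not tested. Counting a summit only for the gene with the nearest start site left 5 of 6 members, without Stt3A. Summits lay upstream of the start site at Stt3A, Stt3B and Dad1 and downstream at OstDelta, Ost48 and Ostgamma, whereas 84.3% of promoter summits lay upstream of the nearest start site. Just inside the 2 kb limit were a peak 1668 bp from Ost48 (347) and one 1683 bp from Dad1 (208). The nearest outside it were peaks 3114 bp from Ostgamma (914) and 3705 bp from it (178).

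At other OST-linked genes and along the rest of the N-glycosylation pathway, start-site peaks were frequent but mostly weaker. Other OST-linked genes had a thresholded start-site peak in 4 of 4 cases, against the same 30.4% of all genes, with a median pooled signal of 619. They were CG9662 (979), kud, which encodes the kuduk protein (689), CG33303 (548) and CG9257 (230). This list was not divided into subunits and partners of the OST, so the 6 members need not be all its subunits. In assembly of the lipid-linked oligosaccharide that the OST uses, 13 of 22 genes (59.1%) had such a peak, with a median of 288 among them. The strongest lay at Alg3, a mannosyltransferase (2127), and at Gmppa, a GDP-mannose pyrophosphorylase relative (1194), and Alg10 and Alg11 had none. In glycan trimming and the folding check that reads trimmed glycans, 11 of 13 genes (84.6%) had a peak, with a median of 382. These were led by Calr, the chaperone calreticulin (5825), and GCS2beta, a glucosidase II subunit (1700), and Cnx14D and GCS1 had none. The 6 OST genes chosen here had a median of 1205, and the difference between lists was not tested.

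**Figure D4:**
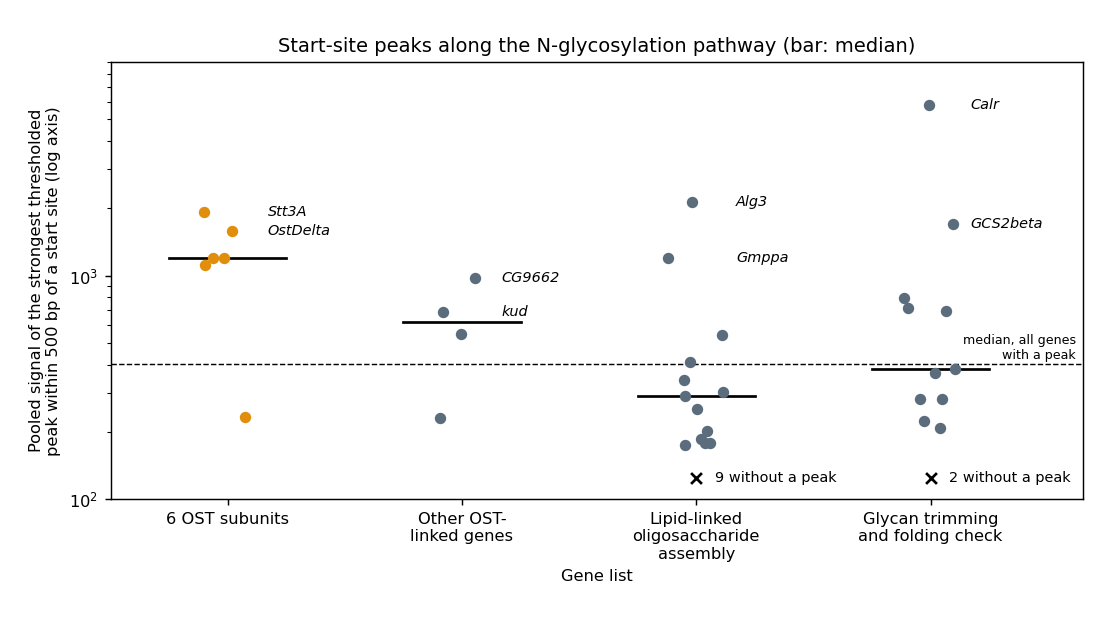
Pooled signal (log axis) of the strongest thresholded peak within 500 bp of a start site for the 6 OST subunits and for 3 lists of related genes, with a bar at each median, a dashed line at the median of all genes with a peak (403) and a cross for genes without a peak. The 6 OST genes chosen here have a median of 1205, other OST-linked genes 619, glycan trimming 382 and lipid-linked oligosaccharide assembly 288.

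For each member, the gene with the most similar start-site peak was sought out of 4086 genes. Leaving aside genes that share the member's peak, such as CG11839 at Stt3B, it was the gene whose percentiles differed least in the worst of the 3 replicates. These were Gapdh2, a glycolytic enzyme, for Stt3A (largest difference 0.431), CaBP1, an ER protein disulphide isomerase, for OstDelta (0.567), and Act5C, a cytoplasmic actin, for Dad1 (0.704). For Stt3B it was meigo (1.16), for Ostgamma p24-1, a p24 cargo receptor (1.07), and for Ost48 CG9426 (0.488). This likeness rests on 3 samples and is a description.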

How the data were processed

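Peaks of Xbp1-GFP ChIP-seq in 3 embryo replicates were used as deposited in dm6, in narrowPeak lists with a signal value and a −log10 q-value per peak from the authors' peak caller. Per the file lists beside the samples, a replicate's peaks came from its own alignment and 1 more file common to all, of unstated role. The irreproducible discovery rate step took the replicate and pooled peaks as input. No source used here names the aligner or the program that called peaks. A control and the dm3 lists were not analysed here. Genes came from Ensembl BDGP6.54 (release 115), sequences from Release 6, and peaks and genes ended within their chromosomes. Signal was compared between peaks of the same list, and between lists only as a rank. A thresholded peak took the strongest entry overlapping it by 1 bp in each replicate. Genes were named by rule: the members, genes beside their peaks, the 2 strongest bound and up to 2 unbound genes (first by alphabet) of each longer list, every matched gene of the short list, and the most similar gene. Of 53 listed names 39 matched a gene once, 10 matched nothing and 4 repeated another. The members, lists and motifs were chosen with earlier results of these data known. The labels call the replicates biological without naming separate cultures or parents. The p-values refer only to how far a difference between peaks within a replicate kept its direction and size over these samples. Alternatives changed the distance, list, overlap, ranking and replicates. The sequences at some peaks are not reported here. Procedures were tested on simulated data. Python 3.11.15, NumPy 2.4.6, pandas 2.3.3 and Matplotlib 3.10.9 were used.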

Additional observations from a re-analysis of the deposited data

How the results depend on the processing

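All 6 genes kept a peak in the gene or within 2 kb under each alternative except in the gene only, which left 4, without Stt3B and Dad1. The start-site count was 5 within 200 bp and with the nearest start site only (without Stt3A), and 5 with the list of replicate 3 and with the stronger 50% of peaks (without Ost48). Leaving out a replicate gave 5 to 6, the 5 without replicate 1 and without replicate 2, again losing Ost48. The median percentile of the 6 genes was 93.1, between 91.8 and 94.4 when a replicate was left out, 98.1 when ranked among all entries of a list and 58.1 when ranked by q-value, where all 6 genes tie. Stt3A minus Stt3B was 4.97, between 3.54 and 6.79 when a replicate was left out, 1.40 among all entries and 0.0 by q-value. By q-value the other differences were also 0.0. Among all entries, where the same signals were ranked, they kept their direction and were smaller. Stt3A minus OstDelta ranged from 2.05 to 4.46 and Stt3B minus Ostgamma from 1.53 to 5.90 when a replicate was left out. OstDelta minus Dad1 ranged from -0.0503 (without replicate 2) to 3.24 (without replicate 1), and Dad1 minus Stt3B from -0.711 (without replicate 1) to 2.38 (without replicate 2), so the order of these 3 genes depends on the replicate. With an overlap of 50% or more, Ostgamma had a percentile of 74.2 ± 30.0 (SD, n = 3). The stronger Ostgamma entry of replicate 3 (8307901 to 8308061) covers less than 50% of the peak, which leaves the weaker one. Stt3B and Dad1 lacked an entry of that extent in at least 1 list and gave no value. Using the start-site peak for Ost48, chosen after seeing the data, gave 23.8 for Ost48 and left the median at 93.1. With 1 group, no pairing of groups by replicate was possible, and genes were compared within each replicate. Unknown depth and a signal without a stated unit limit comparisons between lists to ranks, and 3 replicates cannot give an exact p below 0.25.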

Other observations

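Replicate 2 gave the highest percentile for the start-site peaks of 5 of the 6 OST genes, all but Dad1, whereas it was the highest for 42.3% of the 3336 promoter peaks found in all 3 lists. Among the 780 thresholded peaks with a mean percentile of 88 or more, a limit chosen after seeing the data so as to hold the 5 strong members, the median SD over replicates was 1.07. Ostgamma, with an SD of 7.54, was exceeded by 2 of these peaks (0.256%), Stt3B by 6.54%, OstDelta by 9.36%, Dad1 by 25.9% and Stt3A by 66.4%. These shares depend on the limit, because peaks nearer the top of the percentile scale have less room to vary. Ostgamma, with a mean of 89.0, lay near the lower edge of the set, and peaks of like mean were not compared. Over all 6966 thresholded peaks found in all 3 lists the median SD was 7.58, so the SD of Ostgamma was not unusual there. Replicate 2 was the highest for 28.3% of the 780. The cause was not tested.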
